A study of Mus musculus with 35 samples.

Results

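NUP98-JARID1A leukemia cells after 5 days of doxycycline were compared with control bone marrow cells, to ask which transcripts still differ from the controls once the leukemia fusion gene is switched off. The 6 libraries compared, 3 per group, were selected by their titles out of the 35 samples of the series, 33 of which are RNA libraries. The day 5 group came from transplanted C57BL/6 mice whose cells carried a regulatable NUP98-JARID1A fusion and which received doxycycline at 4 mg/ml for 5 days. The untreated NUP98-JARID1A group (4 libraries, the same fusion without the drug) and the day 3 group (3 libraries, 3 days of the same dose) are used where they place a day 5 value in time. NUP98-DDX10 and NUP98-NSD1 cells after 5 days of the same dose (3 libraries each) serve for 1 further comparison. The 3 control libraries came from untreated C57BL/6 mice. Their labels list NUP98-NSD1, NUP98-JARID1A and a DDX fusion together, with the DDX gene given as DDX40, DDX41 and DDX42 from library to library. What these mice carried is not known from the labels. In all groups the cells were bone marrow cells sorted for GFP and CD45.2, a marker of blood cells that tells donor from host cells in many transplants. Drug, leukemia and loss of the fusion therefore separate the 2 groups together and cannot be told apart in this comparison. The labels number libraries and name no animals or primary leukemias. The p-values therefore measure spread between libraries only, pooled over the groups of all 33 RNA libraries.

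NUP98 encodes a protein of the nuclear pore, and in acute myeloid leukemia its first part can be joined to chromatin proteins such as JARID1A (KDM5A), whose PHD finger binds trimethylated lysine 4 of histone H3. Fusions of this kind are known for high expression of Hoxa genes and of Meis1, transcription factors of blood stem and progenitor cells that fall silent as myeloid cells mature. Granulocytes and monocytes arise from such progenitors, granulocytes filling granules with antimicrobial proteins in a fixed order and monocytes and macrophages acquiring scavenger receptors, complement proteins and lysosomes.

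Values are normalized counts, the authors' read counts divided by 1 size factor per library, and a difference is the day 5 mean minus the control mean of log2(normalized count + 1) (on this scale the change of genes with few reads comes out too small). The value after ± beside a difference is its standard error, and a gene is called higher or lower, or said to rise or fall, at an adjusted p under 0.05 in limma. Standard errors and p-values use the spread pooled over all 33 RNA libraries and not that of the 6 compared, where the controls differed widely. In a model of the 6 libraries alone, 4831 of the 8536 calls against the controls were kept. The 6 libraries held 18771269 to 28912315 reads in genes at day 5 and 12043519 to 17514179 in the controls. Control 3 stood apart from the other controls: 29.6% and 27.9% of the features tested lay at least 2-fold away from controls 1 and 2, which differed from each other in 4.02%. The day 5 libraries differed from each other in 5.5% to 16.5% of features. Control 3 held the most B cell, plasma cell, erythroid and MHC class II transcripts and the fewest neutrophil transcripts of the controls, and values without it are given where they matter. The myeloid markers Csf1r and Itgam were well expressed in all 6 libraries, as given below. Xist, the long RNA expressed from the inactive X chromosome of female cells, had 0, 1 and 4.46 normalized counts at day 5, against 140.1, 4243 and 4848 in the controls. The Y-linked genes Ddx3y, Eif2s3y and Uty were detected in all 6 libraries, and the labels give no sex. The Xist level is thus a further difference between the 2 groups, and a part of the sex of the cells in other differences was not tested.

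The fusion transcript had fallen to 2.65% of its untreated mean and was still above the controls on average. NUP98-JARID1A had 100.3, 95.4 and 60.2 normalized counts at day 5 and 3042 to 3489 in the untreated libraries, against 2.52, 72 and 18.2 in the controls. Control 2 lay inside the day 5 range, and the difference was on the log2 scale 2.31 ± 0.52, adjusted p = 0.000343, 1.17 to 3.36 with 1 library left out. It did not pass the test in DESeq2 or in a model of the 6 libraries alone (adjusted p = 0.112). The eGFP reporter had 324, 339.6 and 305 at day 5 and 9450.4 to 12506 untreated, against 13.9, 210.3 and 14.3 in the controls. All 3 day 5 libraries were above all controls (3.15 ± 0.57, adjusted p = 2.54e-05, 2.51 to 4.42 with 1 library left out), in groups that were all sorted for GFP. Luciferase, a light-emitting reporter, had 4708, 5095 and 6070.3 at day 5 and 2628 to 4148 untreated, against 473, 9.14 and 9.09 in the controls. It was above both groups in every day 5 library (7.17 ± 0.73, adjusted p = 2.19e-09, 6.25 to 9.02 with 1 library left out), and DESeq2 gave no adjusted p for it against the controls. The mouse gene that gives the fusion its second part, Kdm5a, had 1377, 1003 and 799 at day 5, against 1912, 1825 and 2646 in the controls, and was lower (-1.02 ± 0.14, adjusted p = 3.62e-07). Nup98 had 3764, 3777 and 3875 at day 5 against 2176, 2091 and 2840.2 in the controls and was higher (0.70 ± 0.12, adjusted p = 1.16e-05). Of the partner genes of the other fusions, Ddx10 was lower (-0.73 ± 0.14, adjusted p = 6.15e-05) and Nsd1 did not pass (0.17, adjusted p = 0.185; called higher without control 3, at 0.38).

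Much of the transcriptome differed. Of 12687 features tested, 8536 (67.3%) were called in the day 5 libraries against the controls, 3879 (30.6%) higher and 4657 (36.7%) lower; at least 2-fold, 1795 (14.1%) were higher and 2761 (21.8%) lower. Quantile normalization, which moves the median of all features by 0.21 on the log2 scale, turned this split to 4775 higher and 3737 lower, so small differences depend on the scaling. Measured against the untreated cells, 5238 features (41.3%) were called at day 5, 20.1% higher and 21.2% lower, while the untreated cells differed from the controls in 8806 features (69.4%), 31.4% higher and 38% lower. These comparisons share libraries with the first one, so their values are set side by side below and not correlated. In 6841 features (53.9%) the 3 day 5 and the 3 control libraries did not overlap, 3008 (23.7%) with day 5 above and 3833 (30.2%) with day 5 below. Counts of list members below are to be read against these shares. In bulk libraries, fewer cells of a type and less RNA per cell cannot be told apart, and this holds for every difference given here.

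Several Hoxa genes stayed above the controls at day 5, at a fraction of their untreated level. Hoxa9 (Entrez gene 15405, GRCm38 chromosome 6, 52223097 to 52227370), a homeobox factor needed by many myeloid leukemias, had 176, 182 and 192 normalized counts at day 5 and 1348 to 1774 untreated, against 16.4, 32 and 0 in the controls. Every day 5 library was above every control (4.47 ± 0.61, adjusted p = 4.28e-07, 2.94 without control 3), and the day 3 libraries held 471 to 774. Its neighbor Hoxa10 (Entrez gene 15395, GRCm38 chromosome 6, 52231197 to 52240854) had 144, 142 and 130.3 at day 5 and 745 to 932 untreated, against 2.52, 1.14 and 2.6 in the controls. With controls near 0 in each library, Hoxa10 was higher (5.54 ± 0.21, adjusted p = 2.28e-18), and its day 5 mean was 16.8% of the untreated mean. Hoxa7 had 65, 78.4 and 68 at day 5 against 21.5, 21.7 and 7.79 in the controls (2.11 ± 0.24, adjusted p = 1.84e-08).

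Hoxa5, Hoxa3 and Meis1 lay within the control range. Hoxa5 had 32.2, 27.1 and 15.6 at day 5 and 638 to 809 untreated, against 36.6, 32 and 0 in the controls, and did not pass (1.21, adjusted p = 0.118). Its direction depended on the controls used: it was called lower without control 3 (-0.50) and higher without control 1 or 2 (up to 2.12). Hoxa3 had 16.4, 14.1 and 16.7 against 8.84, 21.7 and 0 in the controls; it was called higher, but without control 3 the difference was 0.16 (adjusted p = 0.604), and it was not called without day 5 replicate 3, in edgeR or in DESeq2. Meis1, the usual partner of Hoxa9 in leukemia, had 125, 85.4 and 115 at day 5 and 469 to 586 untreated, against 114, 149.7 and 10.4 in the controls. It did not pass (0.89, adjusted p = 0.0996; -0.28 without control 3, and called higher, by up to 1.58, without control 1 or 2). Among the Pbx cofactors, Pbx3 stayed high, at 1288, 969 and 1234 against 177, 169 and 317 in the controls (2.44 ± 0.18, adjusted p = 3.48e-12). In all, 7 of the 18 tested Hox, Meis and Pbx genes were higher (background 30.6%) and 4 lower (background 36.7%). Their median was 0.56, where all features had -0.09. Of the 4 tested genes at 0 reads at day 5, Hoxb5 and Hoxb7 were at 0 in the controls too. With day 5 zero genes set to their bound, or left out at 3 or fewer control reads, the median was 1.21. With quantile normalization the counts were 11 higher and 1 lower. Against the untreated cells, 2 were higher and 10 lower (backgrounds 20.1% and 21.2%).

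Outside the Hox genes, a few genes of progenitor or leukemia cells stayed far above the controls and more were below them. Igf2bp3 (Entrez gene 140488, GRCm38 chromosome 6, 49085218 to 49215469), an RNA-binding protein of fetal tissues and of some leukemias, had 2685, 2445 and 2137 at day 5 and 4016 to 4532 untreated, against 45.4, 35.4 and 28.6 in the controls. No control came near the day 5 libraries (6.03 ± 0.11, adjusted p = 2.14e-25). Pax8, a paired-box factor best known from thyroid and kidney, had 1241, 1906 and 2126 at day 5 and 2816 to 4807 untreated, against 74.5, 92.6 and 16.9 in the controls (5.09 ± 0.42, adjusted p = 4.2e-11, 4.35 without control 3). The homeobox gene Nkx2-3 had 38.3, 22.1 and 36.8 at day 5 and 903 to 1189.6 untreated, against 1.26, 3.43 and 0 in the controls. It remained higher (3.91 ± 0.34, adjusted p = 1.23e-10) after falling by 4.99 on the log2 scale against the untreated cells (adjusted p = 2.61e-12). Neither Igf2bp3 nor Pax8 is a member of the progenitor list; Nkx2-3 is.

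The stem and progenitor surface genes Cd34, Kit and Flt3 had fallen against the untreated cells, by 3.21, 2.94 and 2.82 on the log2 scale (adjusted p = 0.00126, 5.53e-07 and 1.9e-06). Cd34 had 1278, 1203 and 1026 at day 5 and 9016 to 13034 untreated, against 770, 906 and 10.4 in the controls. Day 5 was above all 3 controls, but without control 3 the difference was 0.48 (adjusted p = 0.0546), and edgeR and DESeq2 did not call it. Kit, the stem cell factor receptor, had 295, 260.2 and 241 against 1554, 1815 and 254 in the controls, with control 3 inside the day 5 range (-1.76 ± 0.41, adjusted p = 0.000437, -2.66 without control 3). Kit was not called in a model of these 6 libraries alone (adjusted p = 0.0895). Flt3, a cytokine receptor of progenitors, and Myb, a factor they need, did not pass against the controls, with differences of -0.23 and -0.22 (adjusted p = 0.645 and 0.603). Without control 3 the differences were -0.98 and -1.07, and both were called lower (adjusted p = 0.0148 and 4.62e-07). Sox4, a progenitor factor, had 6.08, 4.02 and 4.46 at day 5 and 228 to 641 untreated, against 140.1, 197 and 48 in the controls, below both groups (-4.26 ± 0.48, adjusted p = 1.36e-08, -4.85 without control 3). Angpt1, which encodes a ligand made by stem and progenitor cells, had 7.9, 8.04 and 2.23 at day 5 and 366 to 707 untreated, against 279, 370.3 and 37.6 in the controls (-4.64 ± 0.59, adjusted p = 1.28e-07, -5.66 without control 3). Of the 29 progenitor genes tested, 5 were higher and 17 lower, with a median of -1.02 (with control 3 as the only control, 11 were higher). Over all features 30.6% were higher and 36.7% lower. Of the 29, 5 had at most 10 reads over the 3 day 5 libraries. Such genes can meet the filter for testing, 10 normalized counts in 3 or more libraries, through other groups alone. Tal1 and Eya1 were at 0 reads in all 3 day 5 libraries, against 259, 354 and 1555 normalized counts of Tal1 and 143, 92.6 and 169 of Eya1 in the controls. By a floor of 3 reads over the 3 libraries together they were at least 852-fold and 159-fold lower, and without control 3 at least 362-fold and 139-fold.

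Cdk6, named in the title of the series, ended close to the controls. Cdk6 (Entrez gene 12571, GRCm38 chromosome 5, 3341004 to 3531008), a kinase that drives cells through the G1 phase, had 4926, 4029 and 3229.5 at day 5 and 16050 to 16737 untreated, against 3779, 3650.3 and 1236 in the controls. Controls 1 and 2 lay inside the day 5 range and control 3 below it; the difference was 0.64 ± 0.25 (adjusted p = 0.0285), and without control 3 it was 0.11 (adjusted p = 0.579). Without day 5 replicate 1 or 2, with quantile normalization and in DESeq2 Cdk6 was also not called. Cdk4 had 2991, 3342 and 2849 against 2149.8, 2000 and 2099 in the controls, all day 5 libraries above (0.55 ± 0.077, adjusted p = 5.44e-07). Cyclin D1, their partner (Ccnd1), had 1575, 1611 and 1505 against 632, 438 and 161 in the controls, again without overlap (2.14 ± 0.25, adjusted p = 3.91e-08). Of the inhibitors of these kinases, Cdkn2a had 121, 210 and 202 against 3.79, 6.86 and 11.7 (4.47 ± 0.38, adjusted p = 7.92e-11). Cdkn1a had 1395, 2115 and 2551 against 346, 303 and 293 (2.64 ± 0.19, adjusted p = 3.47e-12), and both were higher in every day 5 library than in every control. Cdkn1b was lower, at 885, 1073 and 1183 against 1928, 2139 and 1671 in the controls (-0.87 ± 0.12, adjusted p = 7.14e-07). The retinoblastoma gene Rb1, whose product these kinases phosphorylate, was lower (-0.98 ± 0.12, adjusted p = 4.62e-08). Of 21 G1 genes 9 were higher and 5 lower (backgrounds 30.6% and 36.7%).

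**Figure D1:**
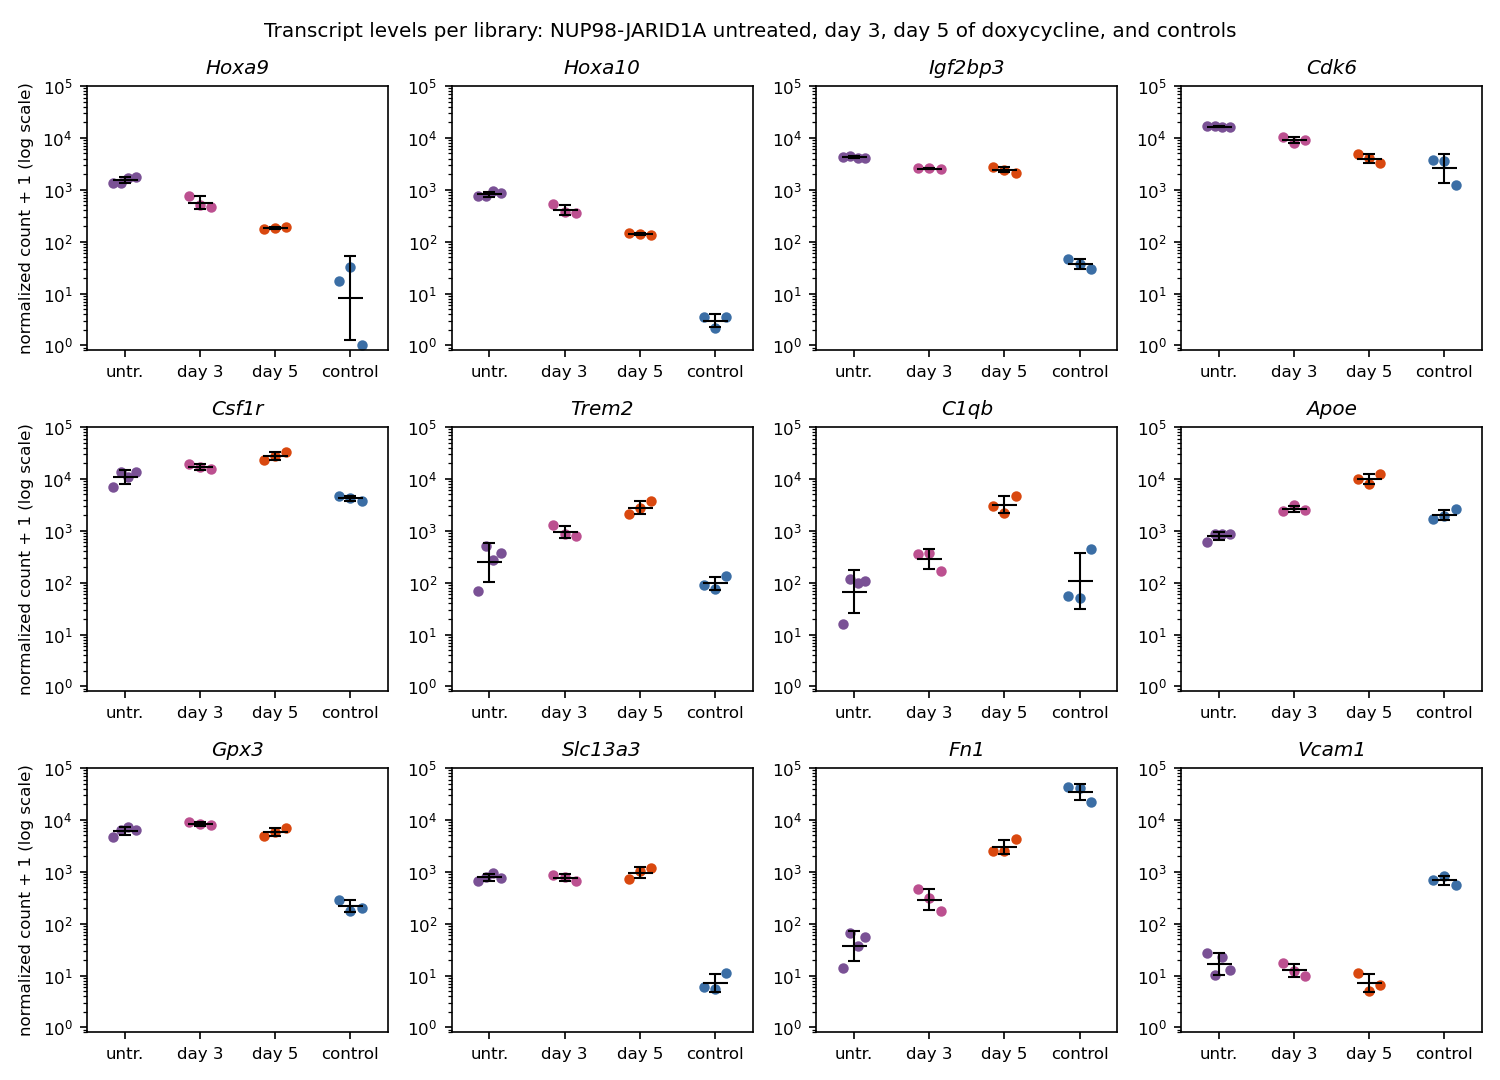
Normalized counts plus 1 (log axis) of 12 genes in each library of NUP98-JARID1A untreated (4 libraries), day 3 (3), day 5 (3) and control (3) cells; bars are the mean and SD of log2(normalized count + 1). Hoxa9, Hoxa10 and Igf2bp3 stayed above all controls at day 5, Cdk6 overlapped them, Csf1r, Trem2, C1qb and Apoe were above untreated and control libraries, and Fn1 and Vcam1 were below the controls.

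Stefin A genes made up 8 of the 15 largest rises among genes above the median level and outside the lists of other blood lineages. Stefins are small cytosolic inhibitors of cathepsins and related cysteine proteases, and mice carry a cluster of closely related copies on GRCm38 chromosome 16, here 10 genes between 36119946 and 36455392. Because the copies are alike, reads may be split or lost between them, so the cluster is also given as a sum. To show how alike they are where transcription starts, 5 of their promoters are printed, from 250 bases before to 50 bases after the start, 5′ to 3′ on the strand of the gene, from RefSeq (GRCm38.p6). Capitals mark letters that match AGATAA (the motif of GATA factors), GAGGAAG (PU.1, found here as its reverse complement) or TGANTCA (AP-1) on either strand, and Stfa2, Stfa2l1 and Csta2 hold none of them.
Stfa3, chr16:36455343-36455642, minus strand: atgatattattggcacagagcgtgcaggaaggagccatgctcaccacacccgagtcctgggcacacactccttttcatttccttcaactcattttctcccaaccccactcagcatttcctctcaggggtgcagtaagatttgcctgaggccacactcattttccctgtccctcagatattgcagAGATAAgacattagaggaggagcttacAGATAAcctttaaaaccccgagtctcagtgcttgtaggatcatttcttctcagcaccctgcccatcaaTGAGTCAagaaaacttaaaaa
Stfa2, chr16:36408314-36408613, minus strand: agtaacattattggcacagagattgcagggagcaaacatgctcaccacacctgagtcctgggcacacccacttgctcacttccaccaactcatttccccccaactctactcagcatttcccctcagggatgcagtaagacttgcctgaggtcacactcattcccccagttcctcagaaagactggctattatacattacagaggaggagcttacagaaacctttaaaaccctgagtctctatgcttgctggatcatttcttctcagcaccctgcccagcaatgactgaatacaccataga
Stfa2l1, chr16:36156561-36156860, plus strand: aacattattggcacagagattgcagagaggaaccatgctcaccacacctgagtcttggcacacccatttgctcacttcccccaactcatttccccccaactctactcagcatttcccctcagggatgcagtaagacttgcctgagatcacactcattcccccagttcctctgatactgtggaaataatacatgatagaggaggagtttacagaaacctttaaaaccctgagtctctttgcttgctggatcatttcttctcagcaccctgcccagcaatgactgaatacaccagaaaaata
Cstdc5, chr16:36367521-36367820, minus strand: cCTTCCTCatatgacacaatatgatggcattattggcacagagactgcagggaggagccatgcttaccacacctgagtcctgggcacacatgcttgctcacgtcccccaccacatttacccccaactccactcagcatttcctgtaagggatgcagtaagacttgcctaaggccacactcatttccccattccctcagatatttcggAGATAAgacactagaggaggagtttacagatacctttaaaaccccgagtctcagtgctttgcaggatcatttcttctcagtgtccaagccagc
Csta2, chr16:36221312-36221611, plus strand: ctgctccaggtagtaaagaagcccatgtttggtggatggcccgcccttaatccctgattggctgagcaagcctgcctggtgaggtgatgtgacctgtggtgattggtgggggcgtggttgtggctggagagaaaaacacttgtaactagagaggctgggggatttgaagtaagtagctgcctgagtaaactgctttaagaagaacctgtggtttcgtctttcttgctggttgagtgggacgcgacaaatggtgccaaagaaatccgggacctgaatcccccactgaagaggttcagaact
In global alignments the promoters of Stfa2 and Stfa2l1 were identical in 90.5% of columns and those of Stfa1 and Cstdc5 in 83.8%, the most alike of the 28 pairs among 8 promoters. The promoter of Csta2 was the least like the others, at 46.5% to 50.7%. AGATAA was found in 4 of the 8 promoters and in 11.2% of 32851 mouse promoters of the same length. GAGGAAG was found in 3 of 8 and in 13.6% of all, and TGANTCA in 1 of 8 and in 7.81%. The letters TTGCGCA (C/EBP), TGATTTA (Hox and Pbx) and TGACAG (Meis) were in none of the 8 and in 2.02%, 2.97% and 19.2% of all, and no 2 matches overlap in the sequences printed. A match describes these letters and is not a binding site.

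Summed over the 10 genes, the stefins had 158687, 106731 and 113921 normalized counts at day 5 and 24276 to 44631 in the untreated libraries, against 4683, 5271 and 89.6 in the controls. The day 5 mean was 37.8-fold the control mean and 3.5-fold the untreated mean, and no day 5 library overlapped either group. The same sum was 3414 to 7978 in NUP98-DDX10 cells and 14684 to 22932 in NUP98-NSD1 cells at day 5. Csta2 differed most, with 5075, 2199 and 1925 at day 5 and 239.9 to 567 untreated, against 1.26, 5.71 and 0 in the controls (10.13 ± 0.59, adjusted p = 3.52e-14, 9.48 to 10.85 with 1 library left out). Stfa2 had 30608, 28421 and 35123 at day 5 and 2482 to 4881 untreated, against 218, 286 and 3.89 in the controls (8.85 ± 0.86, adjusted p = 1.01e-09, 6.96 without control 3). These 2 genes were also higher than in the untreated cells, by 3.02 (adjusted p = 6.91e-05) and 3.25 (0.00188).

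Stfa3 had 47036, 24143 and 24148 at day 5 against 337, 363 and 10.4 in the controls (8.07 ± 0.75, adjusted p = 4.67e-10, 6.42 without control 3), the first day 5 library standing above the other 2. Cstdc4 was also highest in the first day 5 library, with 29758, 9683 and 8237 at day 5 against 1344, 1410.3 and 19.5 in the controls (5.30 ± 0.91, adjusted p = 1.23e-05, 3.27 without control 3). Stfa2l1 had 24869, 23462 and 28734 against 2207, 2754 and 33.8 in the controls (5.43 ± 0.86, adjusted p = 3.93e-06, 3.38 without control 3). Cstdc5, Stfa1, Csta3 and Cstdc6 were higher by 6.96, 6.36, 6.30 and 4.21 (adjusted p = 3.64e-11, 1.12e-07, 4.02e-07 and 1.49e-05), and Csta1 had too few reads for the test. Control 3 was the lowest control in the 8 genes plotted, and without it the differences of these last 4 genes were 5.80, 4.50, 4.40 and 3.00.

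**Figure D2:**
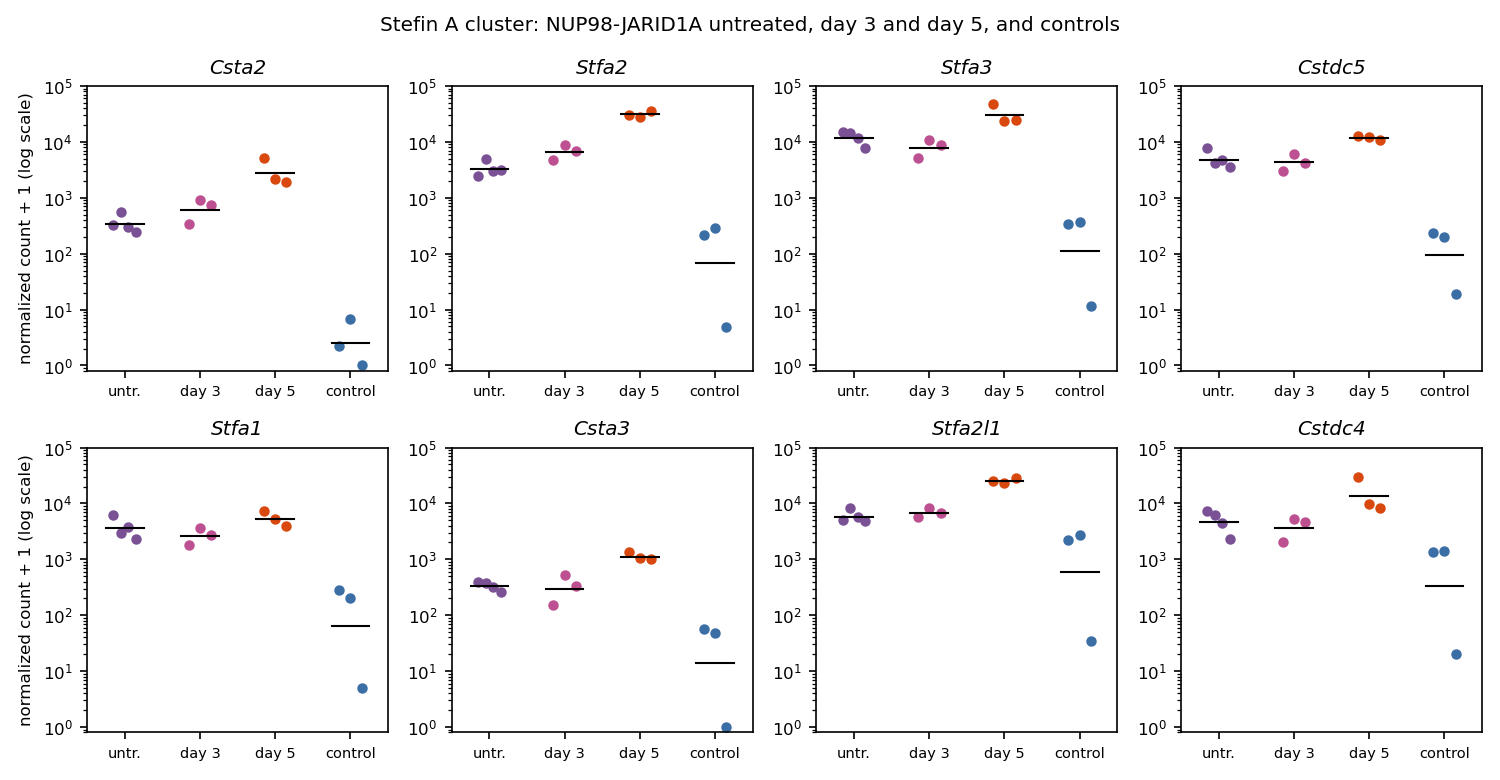
Normalized counts plus 1 (log axis) of 8 stefin A genes in each NUP98-JARID1A untreated, day 3 and day 5 library and in the controls; lines are means of the log values. All 3 day 5 libraries lie above all 3 controls for each gene, and control 3 is the lowest control.

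Monocyte and macrophage transcripts rose widely, above the controls and above the untreated cells. Csf1r, the receptor for the macrophage growth factor, had 23469.5, 27732 and 32349 at day 5 and 7018 to 13668 untreated, against 4697, 4346 and 3679 in the controls, without overlap (2.71 ± 0.19, adjusted p = 1.27e-12). C1qb (Entrez gene 12260, GRCm38 chromosome 4, 136880126 to 136886200), a chain of the first complement component made by macrophages, had 3011, 2207 and 4663 at day 5 and 15.2 to 116 untreated, against 54.3, 50.3 and 445 in the controls. Control 3 was the highest control and still below every day 5 library (4.86 ± 0.71, adjusted p = 1.11e-06, 5.88 without control 3). Its partner chain C1qc had 1099, 915 and 2198 against 58.1, 27.4 and 231 in the controls (4.16 ± 0.70, adjusted p = 9.82e-06, 4.99 without control 3). The third chain, C1qa, had 313, 249 and 635 against 13.9, 6.86 and 96.1 (4.03 ± 0.82, adjusted p = 0.000109, 5.09 without control 3), and was not called when control 3 was the only control. Trem2, a lipid-sensing receptor of tissue macrophages, had 2149, 2796 and 3676 against 88.4, 75.4 and 131 in the controls (4.86 ± 0.41, adjusted p = 8.06e-11). Adgre1, which encodes the macrophage antigen F4/80, had 9503, 7590.4 and 8273 against 1609, 1034 and 997 (2.83 ± 0.15, adjusted p = 1.01e-14). Cd14, the endotoxin co-receptor, had 2143, 1992 and 2666 against 300.4, 501 and 126 (3.07 ± 0.26, adjusted p = 8.4e-11).

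Of 33 monocyte and macrophage genes tested, 22 were higher and 4 lower, with a median of 1.39, and the groups did not overlap in 22 with day 5 above (background 23.7%) and in 4 with day 5 below (background 30.2%). In the untreated cells the same list had 5 higher and 18 lower than the controls (backgrounds 31.4% and 38%) with a median of -0.93. At day 5, 29 of the 33 were higher than in the untreated cells and 2 lower (backgrounds 20.1% and 21.2%). The summed level of the list was 219051 to 263365 normalized counts at day 5, against 167301, 143870.2 and 92306 in the controls. The 4 that fell include Fn1, Vcam1 and Irf8. Fn1 (Entrez gene 14268, GRCm38 chromosome 1, 71585473 to 71653280), encoding the matrix protein fibronectin, had 2499, 2497 and 4286 at day 5 and 13.1 to 64.1 untreated, against 42623, 40546 and 22440.3 in the controls. It was higher than in untreated cells by 6.34 (adjusted p = 5.81e-08), with 175 to 459 at day 3, and still lower than in the controls (-3.50 ± 0.76, adjusted p = 0.00023). Vcam1 (Entrez gene 22329, GRCm38 chromosome 3, 116110020 to 116129688), an adhesion molecule of marrow macrophages and stroma, had 10.3, 4.02 and 5.57 at day 5 and 9.03 to 26.3 untreated, against 696, 835 and 554 in the controls. No day 5 library came near the controls (-6.57 ± 0.51, adjusted p = 1.24e-11). Irf8, a factor of monocyte and dendritic cell fate, was lower (-0.36 ± 0.15, adjusted p = 0.0417), and not so called in edgeR, without control 1 or 3, or without day 5 replicate 1 or 3. Ly6c2, a marker of classical monocytes, was higher by 0.59 with control 3 and by 0.15 without it (adjusted p = 0.401), and was not called without day 5 replicate 2 or 3. Klf4 did not pass (0.89, adjusted p = 0.0641), but was called higher in edgeR, in DESeq2, in a model of the 6 libraries alone (adjusted p = 0.02) and in that model with the replicate block (adjusted p = 0.046).

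Some genes were below the controls in untreated cells and above them at day 5, or the reverse. Among genes above the median level of the 6 libraries with a plain symbol and with no overlap between day 5 and control libraries, 110 passed in the day 5 and in the untreated cells against the controls with opposite signs, 85 of them higher and 25 lower at day 5; the 2 comparisons share the control libraries. With 1 library left out, 74 (without control 1) to 108 of the 110 passed both tests. The 7 described here include receptors and secreted proteins of macrophages. C3ar1, a complement receptor, had 1892, 1277 and 1751 at day 5 and 15.2 to 62.3 untreated, against 193, 238 and 139 in the controls (3.12 ± 0.42, adjusted p = 3.59e-07). Cmklr1, the chemerin receptor, had 976, 924 and 1964 at day 5 and 7.08 to 63.7 untreated, against 72, 75.4 and 117 in the controls (3.80 ± 0.53, adjusted p = 5.14e-07). In both, the day 5 libraries lay above and the untreated ones below each control. Maf, a transcription factor of macrophages and lymphocytes, differed from the controls by 2.30 at day 5 and by -1.90 in the untreated cells (adjusted p = 0.000383 and 0.00126; -1.18 without untreated library 1). The lectin gene Cd302 differed by 2.19 at day 5 and -0.53 untreated (2.5e-10 and 0.0136), and Tgfbi, a matrix protein induced by TGF-beta, by 2.12 and -0.60 (2.38e-09 and 0.01). Apoe, the lipid carrier apolipoprotein E, had 615 to 862 normalized counts untreated, 2409 to 3097 at day 3 and 10009.8, 8103 and 12226 at day 5, against 1649.9, 1882 and 2582 in the controls (2.32 ± 0.30, adjusted p = 1.53e-07). Tsc22d1, a leucine zipper protein, was lower at day 5, with 143, 210 and 124 at day 5 and 954 to 1373 untreated, against 1041, 1029 and 528 in the controls (-2.41 ± 0.23, adjusted p = 8.6e-10). The untreated cells were higher than the controls (0.55, adjusted p = 0.0276), but not without control 3 (0.22, adjusted p = 0.342) or without untreated library 1, 3 or 4. For 3 of the other genes the call in the untreated cells also rested on single libraries. Without untreated library 1 the difference from the controls was -0.60 for Cmklr1, -0.25 for Cd302 and -0.39 for Tgfbi, and none passed (adjusted p = 0.151, 0.0921 and 0.0642). Cmklr1 and Cd302 did not pass without control 3 either, nor Tgfbi without control 1 or 2. In a model of the control and untreated libraries alone, Cmklr1, Maf, Cd302, Tgfbi and Tsc22d1 did not pass, while C3ar1 and Apoe passed in all alternatives run.

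Most genes of the lysosome and many of the cytokine receptors, lipid handling genes and myeloid transcription factors were higher too. Of 24 lysosome and cathepsin genes 20 were higher and 1 lower (median 1.09, backgrounds 30.6% and 36.7%, as for the receptors below). In 19 every day 5 library lay above every control (background 23.7%). Without control 2, 0 were lower. Ctsa, a lysosomal carboxypeptidase, had 17866, 24507 and 30614 against 5053, 4709 and 6801 in the controls (2.12 ± 0.17, adjusted p = 1.89e-11). Lamp1, a major protein of the lysosomal membrane, was higher (1.72 ± 0.13, adjusted p = 1.2e-11), as was the glucuronidase gene Gusb (1.94 ± 0.10, adjusted p = 6.35e-15). The list summed to 359672 to 476831 normalized counts at day 5 and 176675 to 224748 untreated, against 126804 to 180611 in the controls. Among 22 cytokine receptors 13 were higher and 3 lower. Il3ra, the interleukin 3 receptor chain, had 1069, 1889 and 2469.8 at day 5 and 1310.2 to 2414 untreated, against 273, 306 and 180.4 in the controls (2.79 ± 0.25, adjusted p = 1.63e-10). Ifngr1 and Il6ra, receptors of interferon gamma and interleukin 6, were higher by 1.29 and 1.57 (adjusted p = 3.46e-12 and 8.12e-09). Il7r, the lymphoid interleukin 7 receptor, was lower, at 9.12, 3.01 and 2.23 against 1312, 1515 and 628 in the controls (-7.73 ± 0.41, adjusted p = 5.09e-15).

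Of 25 myeloid transcription factors 16 were higher and 3 lower (backgrounds 30.6% and 36.7%, as for the other lists of this paragraph). Spi1, which encodes PU.1, had 6976, 10380.4 and 14421 against 4971, 5725 and 2048 in the controls (1.39 ± 0.24, adjusted p = 1.59e-05). Cebpa, the granulocyte and monocyte factor C/EBP alpha, had 1109, 1624 and 2191 against 677, 639 and 218 (1.79 ± 0.29, adjusted p = 4.54e-06). Irf5, a macrophage interferon regulatory factor, had 4809.8, 7432 and 9262 against 1458, 1530.3 and 2964 (1.88 ± 0.25, adjusted p = 2.49e-07). All 3 were above every control in every day 5 library. Of 16 genes of lipid handling 8 were higher and 3 lower. Lpl, lipoprotein lipase, had 7070, 6259 and 5297 against 1589, 746 and 1131 in the controls (2.48 ± 0.38, adjusted p = 2.58e-06). The cholesterol exporter gene Abcg1 was higher (1.42 ± 0.24, adjusted p = 8.16e-06). The scavenger receptor gene Cd36 was lower, at 27.4, 13.1 and 21.2 against 629.9, 592 and 804 (-5.02 ± 0.51, adjusted p = 2e-09). The desaturase genes Scd1 and Scd2 went apart. Scd1 had 4.26, 2.01 and 3.34 at day 5 and 6.07 to 15.7 untreated, against 2715, 3824 and 24341 in the controls (-10.59 ± 0.76, adjusted p = 2.9e-12, -9.62 without control 3). Scd2 had 3669, 3851 and 3838 against 1391, 1043 and 1209 (1.65 ± 0.20, adjusted p = 6.78e-08). Integrins were mixed, 7 of 15 higher and 5 lower, with Itgb5 (3.49 ± 0.16, adjusted p = 1.66e-16) and Itga5, the fibronectin receptor chain (2.86 ± 0.18, adjusted p = 1.42e-13), among the higher ones.

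Neutrophil granule genes gave no single direction, and the controls differed widely among themselves. Of 35 late granule and mature neutrophil genes 8 were higher and 8 lower, with a median of 0.10; without control 3, 19 were lower, without control 1 or 2, 3 were lower, and with control 3 as the only control 27 were higher and 0 lower. The stefins Stfa1, Stfa2 and Stfa3 described above belong to this list and are among its higher members. Over all features 30.6% were higher and 36.7% lower. The list summed to 1158984 to 1629948 normalized counts at day 5 and 373347 to 489502 untreated, against 3710049, 4033138 and 382453 in the controls. Ltf, the secondary granule protein lactoferrin, had 92934, 132480 and 147744 at day 5 and 13887 to 24644 untreated, against 215517, 242582 and 24747 in the controls, and did not pass (0.16, adjusted p = 0.827). Ngp, another granule protein, likewise did not pass (-0.23, adjusted p = 0.722) and was called lower without control 3 (-1.24). For both, the day 5 libraries lay between control 3 and the other 2 controls, and above every untreated library. S100a8 and S100a9, the subunits of calprotectin, were lower on average (-1.80 ± 0.63, adjusted p = 0.0134, -3.15 without control 3 for S100a8, and -1.79 ± 0.57, adjusted p = 0.00747, -2.96 without control 3 for S100a9). Neither was called without control 1, without control 2 or in a model of the 6 libraries alone. S100a9 had 127386, 131986 and 107149 at day 5 against 917015, 984174 and 81844 in the controls.

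Olfm4, a granule protein of a subset of neutrophils, was higher in every day 5 library, at 10028, 9665 and 11693 against 2393, 2385 and 147 in the controls (3.46 ± 0.73, adjusted p = 0.000157, 2.12 without control 3). Lyz2, lysozyme, had 253354, 243637 and 249951 against 167488, 156003 and 44212 (1.25 ± 0.29, adjusted p = 0.000471, 0.62 without control 3). Itgam, which encodes CD11b, had 36095, 39477 and 44274 against 27914, 29133 and 5042 (1.31 ± 0.35, adjusted p = 0.00163, 0.48 without control 3). Neither was called in a model of the 6 libraries alone. Orm1 was lower, at 167, 90.4 and 130.3 against 1312, 1758 and 218 (-2.66 ± 0.55, adjusted p = 0.000139, -3.59 without control 3), which did not hold with control 3 as the only control. Of the primary granule genes, made first in maturation, 5 of 11 were higher and 1 lower (2 without control 3), with backgrounds of 30.6% and 36.7%. Prtn3, proteinase 3, had 5266, 10698 and 10439 at day 5 and 13121 to 20367 untreated, against 2834, 3119 and 748 in the controls (2.16 ± 0.34, adjusted p = 4.25e-06, 1.49 without control 3). Mpo, myeloperoxidase, had 11628, 19345 and 17147 at day 5 and 32651 to 44378 untreated, against 26287, 25392 and 3273 in the controls and did not pass (0.27, adjusted p = 0.613), while without control 3 it was called lower (-0.72). Against the untreated cells the late granule list had 21 of 35 genes higher and 1 lower. The primary granule list had 1 of 11 higher and 4 lower. Over all features 20.1% were higher and 21.2% lower in that comparison.

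The largest falls were transcripts of other blood lineages that the controls contain. All 23 B cell genes tested were lower, 14 of them with at most 10 reads over the 3 day 5 libraries. So were all 29 T and NK cell genes, 20 of them with at most 10 reads, and all 23 erythroid genes, 12 of them with at most 10 reads. In none of these lists did a member overlap between the groups. Over all features, 36.7% were lower and 30.2% did not overlap with day 5 below. The filter for testing, 10 normalized counts in 3 or more libraries, can be met by the 3 controls alone. A gene that entered through the controls only lies below them at day 5 by that choice. These counts therefore describe what the controls hold and do not test the lists. Ebf1, a transcription factor of B cells, was at 0 reads at day 5. The controls had 3191, 3106 and 7889.9 normalized counts of Ebf1, so that day 5 was at least 5577-fold lower by a floor of 3 reads over its 3 libraries, or 3713-fold without control 3. The B cell genes Fcmr and Ms4a1 (CD20) were at 0 reads too, against 2407, 2901 and 16172 normalized counts of Fcmr and 3285, 2981 and 11348 of Ms4a1 in the controls. They were at least 8444-fold and 6924-fold lower, and without control 3, the highest control for both, at least 3129.8-fold and 3694-fold. Rag2, of the recombinase that assembles antigen receptor genes, had 2 reads at day 5 and 30.3 to 83.2 normalized counts untreated, against 298, 306 and 49.3 in the controls. Cd3e of T cells and Ncr1 of NK cells were at 0 reads at day 5, at least 735-fold and 419-fold lower, or 472-fold and 285-fold without control 3. Gata3, a T cell factor that the untreated leukemia also held, had 4.26, 2.01 and 1.11 at day 5 and 375 to 642 untreated, against 70.7, 113 and 105 in the controls (-4.89 ± 0.34, adjusted p = 1.18e-12). The erythroid surface gene Rhag was at 0 reads at day 5. Against 425, 658 and 4141 normalized counts in the controls Rhag was at least 2054-fold lower, or 639-fold without control 3. For Car1, a carbonic anhydrase of red cells, the control to day 5 ratio was 6415 (95% counting interval 1151 to 253370). The globin genes Hba-a1, Hba-a2 and Hbb-bt were listed at 0 in all 6 libraries.

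In sums per library, B cell genes had 2739 to 3285 normalized counts at day 5, against 44005, 47765 and 186036 in the controls. Erythroid genes had 3623 to 3957 against 20422, 29828 and 175924, and T and NK cell genes 261 to 351 against 10761, 11438 and 21025. Basophil, mast cell and eosinophil genes were lower in 18 of 20 and higher in 1, Il3ra (2 higher without control 1 or 2). Of the 20, 10 had at most 10 reads over the 3 day 5 libraries. Over all features 36.7% were lower and 30.6% higher, as for the other list counts of this paragraph. Genes that met the filter for testing through the controls only are lower by that choice here too, so these counts do not test the lists. Fcer1a, of the IgE receptor, was at 0 reads at day 5, at least 1098-fold lower than in the controls, or 727-fold without control 2. Prss34 and Mcpt8, proteases of basophils, had 1 and 29 reads at day 5, and Mcpt8 was lower (-8.87 ± 0.32, adjusted p = 1.06e-18). Of 8 plasma cell genes 6 were lower and 1 higher, or 0 higher without control 1 or 2 or day 5 replicate 1 or 3. Jchain, of secreted antibodies, had 38.9, 21.1 and 129 at day 5 against 15120.3, 27057 and 162190 in the controls (-9.70 ± 0.83, adjusted p = 9.9e-11, -8.70 without control 3). Megakaryocyte genes were lower in 5 of 8 and endothelial and stromal genes in 4 of 7, with 0 higher in both (1 endothelial or stromal gene without control 1 or 2). The part of lymphoid, erythroid and basophil cells of the controls in the other differences of this comparison was not tested.

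Genes of antigen presentation by MHC class II were lower as well. H2-Aa had 253, 677 and 553 at day 5 and 15.2 to 80.3 untreated, against 10092, 12160 and 75643 in the controls (-5.52 ± 0.73, adjusted p = 2.44e-07, -4.60 without control 3). Cd74, the invariant chain, had 2004, 4725 and 5700.4 at day 5 and 107 to 937 untreated, against 24919.8, 29730.4 and 170821 in the controls (-3.73 ± 0.73, adjusted p = 6.33e-05, -2.85 without control 3). Both lay between untreated cells and controls with no overlap, and were higher than in the untreated cells by 3.53 and 3.26 (adjusted p = 0.000155 and 0.00035). H2-Ob, a B cell modulator of peptide loading, went the other way against the untreated cells, with 29.8, 21.1 and 25.6 at day 5 and 138 to 154 untreated, against 821, 1078 and 7665 in the controls (-6.17 ± 0.44, adjusted p = 2.76e-12, -5.16 without control 3). Of 11 class II genes 9 were lower and 0 higher; without control 3, 2 were higher, and without day 5 replicate 1, 1. Of 15 dendritic cell genes 11 were lower and 0 higher. Over all features 36.7% were lower and 30.6% higher, for both lists. At most 10 reads over the 3 day 5 libraries were held by 3 dendritic cell genes and 1 class II gene. Such genes can meet the filter for testing through other groups alone. Siglech, of plasmacytoid dendritic cells, had 18.2, 9.04 and 10 against 3406, 2206 and 439 (-6.86 ± 0.59, adjusted p = 1.07e-10, -7.74 without control 3).

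**Figure D3:**
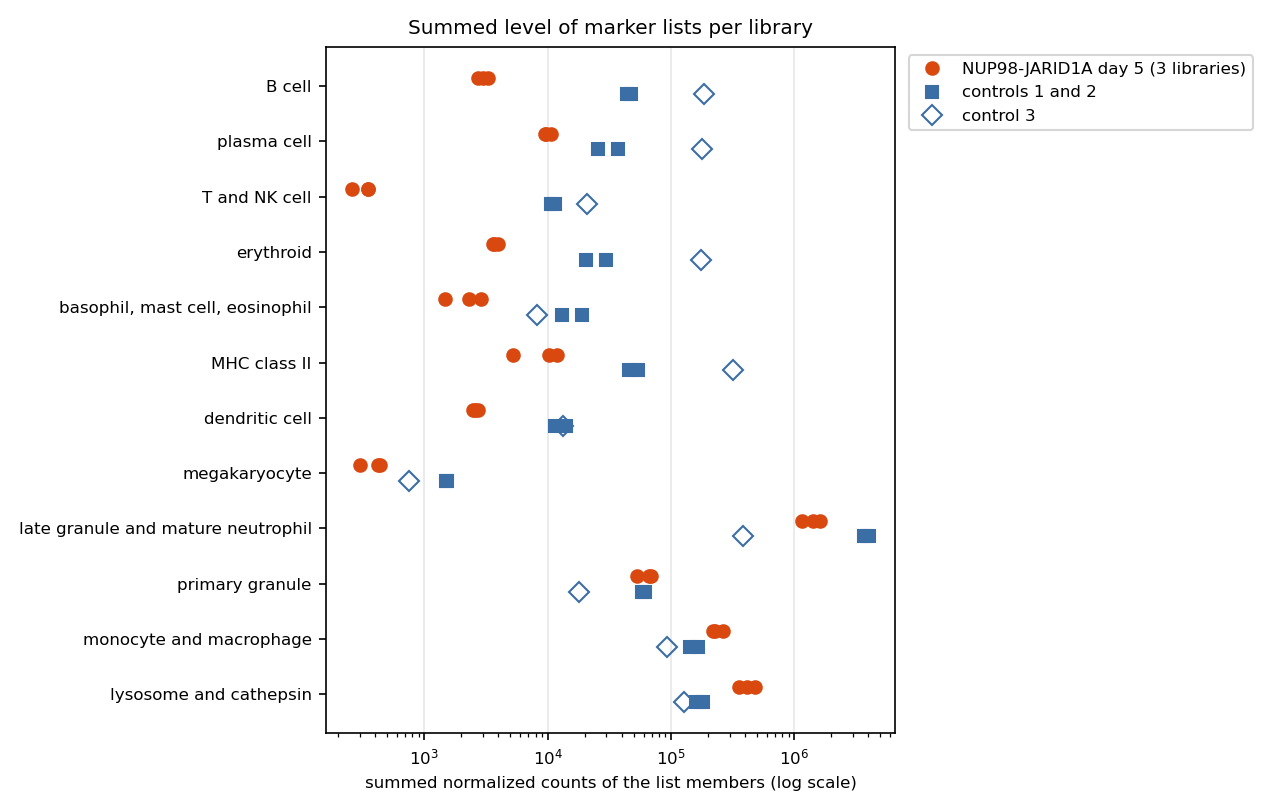
Summed normalized counts (log axis) of the members of 12 marker lists in each NUP98-JARID1A day 5 library and each control. B cell, T and NK cell and erythroid sums are lower in every day 5 library than in every control, neutrophil sums at day 5 lie between control 3 and the other controls, and monocyte and lysosome sums are higher at day 5.

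Large falls outside these lists included both lymphoid and more widely expressed genes. Ly6d, a surface protein of lymphoid-primed progenitors and B cells, was at 0 reads in all 3 day 5 and all 4 untreated libraries, against 3926, 3973 and 12131 normalized counts in the controls, at least 7874-fold lower at day 5, or 4657-fold without control 3. Dach1, a transcriptional cofactor, was at 0 reads at day 5, against 1954, 2139 and 178 in the controls, at least 1679-fold lower. Controls 1 and 2 were the high ones for Dach1 and control 3 was the high one for Ablim1, an actin-binding protein with 1.22, 4.02 and 2.23 at day 5 against 2259.6, 2253 and 9738 in the controls (-10.12 ± 0.73, adjusted p = 3.17e-12, -9.42 without control 3). Fmnl2, a formin, followed Dach1, with 1.82, 0 and 2.23 against 2787, 3537 and 256 (-9.35 ± 0.78, adjusted p = 5.77e-11, -10.55 without control 3). Gimap4, an immunity-related GTPase of lymphocytes, had 2 reads at day 5, against 1707, 2034 and 8677 normalized counts in the controls, a control to day 5 ratio of 7322 (95% counting interval 2027 to 60461). Without control 3 the ratio was 3309 (916 to 27322). Cecr2, a bromodomain protein, had 3 reads and Chst3, a sulfotransferase, 1 read at day 5, while the controls had 1044, 1130.3 and 890.5 of Cecr2 and 749.8, 702 and 3229.7 of Chst3. Ly6d, Dach1, Ablim1, Fmnl2, Gimap4, Cecr2 and Chst3 were lower than in the controls in the untreated cells too.

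Many differences from the controls were present in untreated cells and at day 5. Under the same level and symbol conditions, 2121 genes passed with the same sign in both comparisons with the controls and did not pass between day 5 and untreated cells, 1076 higher and 1045 lower; not passing does not show that a level was unchanged. Slc13a3 (Entrez gene 114644, GRCm38 chromosome 2, 165405295 to 165473197), a sodium-coupled carrier of dicarboxylates, had 724, 1047 and 1166 at day 5 and 658 to 960 untreated, against 5.05, 4.57 and 10.4 in the controls. The day 5 and untreated ranges overlapped and both were far above the controls (7.05 ± 0.23, adjusted p = 1.39e-19). Gpx3 (Entrez gene 14778, GRCm38 chromosome 11, 54902854 to 54910387), the secreted glutathione peroxidase, had 4885, 5837 and 7116 at day 5 and 4730.2 to 7319.9 untreated, against 288, 177 and 199.9 in the controls (4.75 ± 0.48, adjusted p = 1.69e-09). Hal, histidine ammonia-lyase, had 1045, 1118 and 1129.6 at day 5 against 167, 123 and 27.3 (3.71 ± 0.43, adjusted p = 2.21e-08, 2.93 without control 3). Jup, the junction protein plakoglobin, was higher (3.55 ± 0.27, adjusted p = 6.31e-12), as was the matrix metalloprotease gene Mmp19 (3.42 ± 0.26, adjusted p = 1.24e-11). Dab2, an endocytic adaptor, was higher than in the untreated cells as well (1.55, adjusted p = 0.00594), with 3701, 2549 and 4126 at day 5 and 724 to 1449 untreated, against 25.2, 21.7 and 173 in the controls (6.17 ± 0.47, adjusted p = 9.57e-12, 7.12 without control 3).

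Genes of DNA replication and ribosome biogenesis were below their untreated level and went both ways against the controls. Of 45 DNA replication genes 6 were higher and 22 lower than in the controls (median -0.24, backgrounds 30.6% and 36.7%). Without control 3, 10 were higher, and without day 5 replicate 2, 3. The untreated cells had 26 higher and 7 lower than the controls (backgrounds 31.4% and 38%). Against the untreated cells 0 were higher and 41 lower at day 5 (backgrounds 20.1% and 21.2%). Prim1, of the primase, had 627, 417 and 249.5 against 1243, 1001 and 1020.3 in the controls (-1.43 ± 0.23, adjusted p = 3.94e-06). Gins2, of the replicative helicase, was higher, at 497, 554 and 509 against 317, 323 and 206 (0.91 ± 0.12, adjusted p = 2.3e-07). Of 34 genes of MYC targets and ribosome biogenesis 10 were higher and 15 lower than in the controls at day 5, not far from the backgrounds. In the untreated cells 23 were higher and 4 lower than in the controls. Myc had 1589.7, 1185 and 1276 at day 5 and 3315 to 4388 untreated, against 1342, 1249 and 1279.9 in the controls, inside or next to the control range (0.054 ± 0.15, adjusted p = 0.76). The nucleolar genes Ncl (-1.58 ± 0.15, adjusted p = 4.54e-10) and Nop58 (-2.25 ± 0.25, adjusted p = 1.12e-08) were lower than in the controls. Srm, spermidine synthase (1.26 ± 0.14, adjusted p = 1.42e-08), and Bop1, of ribosome assembly (1.34 ± 0.17, adjusted p = 1.66e-07), were higher.

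Of 32 mitosis genes 10 were higher and 17 lower (backgrounds 30.6% and 36.7%). Against the untreated cells 0 were higher and 3 lower (backgrounds 20.1% and 21.2%). Mki67, the proliferation antigen Ki-67, had 21405, 17232 and 15450.3 at day 5 and 17463 to 23369 untreated, against 36249, 37279 and 52337 in the controls (-1.21 ± 0.16, adjusted p = 1.45e-07), with every day 5 library below every control. Cenpe, a kinetochore motor, was lower (-1.68 ± 0.21, adjusted p = 9.77e-08). The mitotic kinase gene Plk1 was higher, at 1432, 2504 and 2131 against 621, 656 and 733 (1.56 ± 0.19, adjusted p = 6.31e-08), and so was the checkpoint gene Bub1b (0.97 ± 0.10, adjusted p = 2.79e-09). The count of 17 fell to 11 in edgeR and without control 1, to 9 without day 5 replicate 3 and to 8 with control 3 as the only control. Chromatin regulators of the Polycomb and Trithorax groups were higher in 6 of 22 and lower in 10 (backgrounds 30.6% and 36.7%), not far from those shares. Ezh2, which methylates histone H3, had 745, 591 and 387 against 1945, 1695 and 841 in the controls (-1.34 ± 0.21, adjusted p = 4.21e-06). Its partner Eed (-0.80 ± 0.15, adjusted p = 3.62e-05) and the methyltransferase gene Setd2 (-0.83 ± 0.09, adjusted p = 9.24e-09) were lower too. The 6 higher ones were 1 or 2 without day 5 replicate 2 or 3, without control 1 or 2, and with control 3 as the only control.

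**Figure D4:**
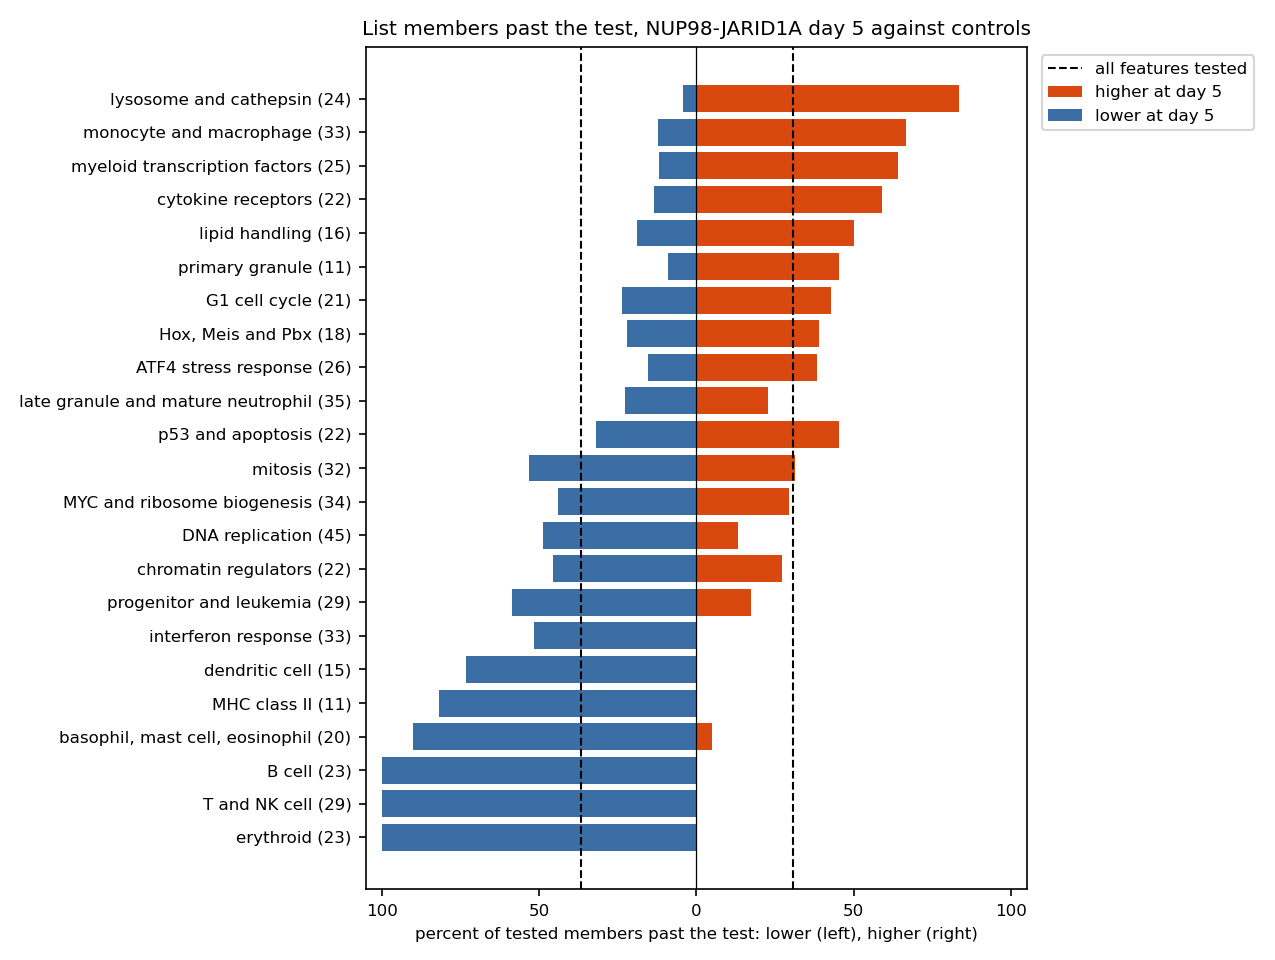
Percent of the tested members (number in brackets) of 23 gene lists that passed the test in NUP98-JARID1A day 5 against control libraries, higher to the right and lower to the left; dashed lines are the shares over all features tested, 30.6% higher and 36.7% lower. Lysosome, monocyte, myeloid factor and cytokine receptor lists exceed the line for higher, and B cell, T and NK cell and erythroid members are all lower.

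Interferon response genes were lower in 17 of 33 and higher in 0 (backgrounds 36.7% and 30.6%, as for the other lists of this paragraph). In 17 every day 5 library lay below every control (background 30.2%). Rsad2, an antiviral enzyme, had 112, 226 and 246 at day 5 and 134 to 175 untreated, against 2422, 1537 and 6306 in the controls (-3.95 ± 0.54, adjusted p = 4.34e-07). Mx1 (-1.60 ± 0.34, adjusted p = 0.000146) and Ifit2 (-1.41 ± 0.23, adjusted p = 5.69e-06), both induced by interferon, were lower. Without day 5 replicate 1, 2 of the list were higher, and without control 3, 1. Of 22 p53 and apoptosis genes 10 were higher and 7 lower. Bax, which promotes cell death, had 616, 896 and 727 against 258, 235 and 411 in the controls (1.33 ± 0.15, adjusted p = 1.93e-08), while Bcl2 (-2.19 ± 0.26, adjusted p = 3.7e-08) and Mcl1 (-1.11 ± 0.14, adjusted p = 1.91e-07), which oppose it, were lower. Gadd45a, induced by DNA damage, had 227, 260.2 and 254 against 1868, 2449 and 1267 (-2.86 ± 0.24, adjusted p = 6.41e-11). Of 26 genes of the ATF4 stress response 10 were higher and 4 lower (2 lower without day 5 replicate 1). The serine metabolism gene Shmt2 was higher (1.37 ± 0.16, adjusted p = 2.03e-08) and Ddit3, which encodes CHOP, lower (-1.59 ± 0.18, adjusted p = 1.94e-08).

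Among 24 immediate early and heat shock genes 3 were higher and 5 lower (backgrounds 30.6% and 36.7%, as for the other lists of this paragraph). Egr1, an early growth response factor, had 124, 109.5 and 193 against 872, 1537 and 535 in the controls (-2.69 ± 0.42, adjusted p = 3.02e-06), and the phosphatase gene Dusp2 was lower (-3.96 ± 0.35, adjusted p = 1.62e-10). Jun was higher by 1.20 (adjusted p = 0.00493), and by 0.73 without control 3 (adjusted p = 0.0701). Of 18 cytokines and chemokines 4 were higher and 5 lower (9 lower without control 3, and 3 without control 2 or day 5 replicate 1). Ccl2, the monocyte attractant, had 593, 362 and 487 at day 5 and 5.05 to 52.4 untreated, against 39.1, 30.9 and 24.7 in the controls (3.88 ± 0.46, adjusted p = 4.32e-08). Cxcl16, a scavenger receptor and chemokine, was higher (3.72 ± 0.48, adjusted p = 1.79e-07, 4.56 without control 3). Ccl5, made by T and NK cells, had 4.26, 8.04 and 13.4 against 2269.7, 2941 and 4560.2 (-8.47 ± 0.65, adjusted p = 1.16e-11). Tgfb1 was higher, at 14603, 25101 and 32769.8 against 7813, 7685 and 8277 (1.53 ± 0.21, adjusted p = 2.86e-07). NADPH oxidase genes were higher in 2 of 8 and lower in 2, with 1 to 5 higher and 1 or 2 lower when 1 library was left out.

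The day 5 state differed from that of the other NUP98 fusions at the same dose and time. Against the mean of NUP98-DDX10 and NUP98-NSD1 day 5 cells 7289 features (57.5%) were called, 28.5% higher and 28.9% lower. Late neutrophil genes were higher in 29 of 35 and lower in 1 with a median of 2.30, while DNA replication genes were lower in 39 of 45 and higher in 0 and MYC and ribosome genes lower in 27 of 34 and higher in 0. Interferon genes were higher in 18 of 33 and lower in 1. Myeloid transcription factors were higher in 15 of 25 and lower in 1, and Hox, Meis and Pbx genes lower in 12 of 18 and higher in 2. Pla2g7, a secreted phospholipase of macrophages, had the largest rise, with 2785, 1538 and 2123 in NUP98-JARID1A, against 6.01 to 14.3 in NUP98-DDX10 and 0 to 4.76 in NUP98-NSD1 libraries (8.57 ± 0.51, adjusted p = 1.86e-13). The controls had 2632, 2493 and 467, overlapping the NUP98-JARID1A libraries. Apoe had 8103 to 12226 in NUP98-JARID1A, against 141 to 153 in NUP98-DDX10 and 88.5 to 161 in NUP98-NSD1 (6.28 ± 0.26, adjusted p = 5.63e-17).

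Other rises over the mean of the other fusions were unequal between them. Plbd1, a phospholipase B-like granule protein, had 8238 to 13372 in NUP98-JARID1A, against 625 to 1026 in NUP98-DDX10 and 43.3 to 46.3 in NUP98-NSD1 (5.75 ± 0.37, adjusted p = 1.15e-12). Alox5, a lipoxygenase of leukotriene synthesis, had 10719 to 15669 in NUP98-JARID1A, against 2438 to 3921 in NUP98-DDX10 and 15.7 to 78.6 in NUP98-NSD1 (5.30 ± 0.48, adjusted p = 8.15e-10). In both, NUP98-DDX10 libraries lay nearer to NUP98-JARID1A than NUP98-NSD1 libraries did, and in C1qc and Mmp9 the order was the other way. C1qc had 915 to 2198 in NUP98-JARID1A, against 5.49 to 7.53 in NUP98-DDX10 and 184 to 519 in NUP98-NSD1 (4.73 ± 0.61, adjusted p = 4.06e-07). Mmp9, a protease of neutrophil granules, had 19482 to 55115 in NUP98-JARID1A, against 226 to 1305 in NUP98-DDX10 and 1442 to 12699 in NUP98-NSD1 (4.50 ± 0.77, adjusted p = 2.2e-05). Olfm4 (5.34 ± 0.63, adjusted p = 1.03e-07), Marcks (4.83 ± 0.48, adjusted p = 4.7e-09), an actin-regulating substrate of protein kinase C, Hdc (4.62 ± 0.53, adjusted p = 6.51e-08), whose product makes histamine, and Pax8 (4.54 ± 0.36, adjusted p = 9.49e-11) completed the 10 largest under the conditions on level, symbol and overlap. For Olfm4, Marcks and Hdc the libraries of the other fusions overlapped each other, and all lay below NUP98-JARID1A. Gpx3 was shared with 1 of the other fusions: the NUP98-JARID1A libraries held 4885 to 7116 normalized counts, and NUP98-DDX10 libraries held 5473 to 6678. NUP98-NSD1 libraries held 7.61 to 20.5 and the controls 177 to 288.

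Smad1, Scmh1, Arhgap21 and Tmem64 were nearly silent in NUP98-JARID1A cells and expressed in NUP98-DDX10, NUP98-NSD1 and control cells. Smad1, which carries BMP signals to the nucleus, had 0.608, 1 and 2.23 in NUP98-JARID1A at day 5, against 526 to 573 in NUP98-DDX10, 534 to 619 in NUP98-NSD1 and 323, 259 and 358 in the controls (-8.02 ± 0.29, adjusted p = 3.4e-18). Scmh1, a Polycomb group protein, had 4.86, 5.02 and 6.68, against 872 to 986 in NUP98-DDX10, 778 to 956 in NUP98-NSD1 and 759, 793 and 936 in the controls (-7.11 ± 0.20, adjusted p = 1.28e-20). Arhgap21, a GTPase-activating protein, had 4.86, 3.01 and 14.5, against 874 to 934 in NUP98-DDX10, 612 to 795 in NUP98-NSD1 and 1211, 1264 and 1737 in the controls (-6.81 ± 0.44, adjusted p = 1.37e-12). All 3 were also low before doxycycline, with 0 to 1.81, 10.6 to 29.3 and 0 to 12.1 in the untreated NUP98-JARID1A libraries. Tmem64 had 1 read in the 3 day 5 libraries, against 119 to 157 normalized counts in NUP98-DDX10, 154 to 178 in NUP98-NSD1 and 791, 879 and 1964 in the controls.

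Tut4, a terminal uridylyltransferase of let-7 precursors, was lower than in the other fusions (-3.39 ± 0.18, adjusted p = 1.53e-14), and lower than in the controls, at 88.8, 91.4 and 108 against 3061, 3160 and 5722 (-5.30 ± 0.21, adjusted p = 7.86e-18). The ribosomal protein gene Rpl13 had 269, 214 and 156 at day 5, against 1236 to 2262 in NUP98-DDX10, 1165 to 1291 in NUP98-NSD1 and 1601, 1640 and 2038 in the controls (-2.80 ± 0.24, adjusted p = 2.75e-10); processed copies of ribosomal protein genes can take reads from it. Adam19, a membrane metalloprotease, had 36.5 to 135 in NUP98-JARID1A, against 641 to 814 in NUP98-DDX10 and 1862 to 2078 in NUP98-NSD1 (-4.05 ± 0.31, adjusted p = 4.8e-11). Ccdc88a, the actin-binding protein girdin, had 49 to 58.4 in NUP98-JARID1A, against 124 to 200.3 in NUP98-DDX10 and 1319 to 1425 in NUP98-NSD1 (-3.09 ± 0.28, adjusted p = 9.28e-10), and both were lowest in NUP98-JARID1A and highest in NUP98-NSD1. Both had risen against the untreated cells, by 2.95 and 2.47 (adjusted p = 7.86e-08 and 2.29e-07). Slc4a8, a bicarbonate carrier, was lower than in the other fusions (-2.49 ± 0.20, adjusted p = 6.56e-11) and higher than in the controls (2.31 ± 0.23, adjusted p = 1.08e-09). Angptl2 (-4.26 ± 0.35, adjusted p = 1.41e-10), an angiopoietin-like secreted protein, was also among the 10 largest falls.

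**Figure D5:**
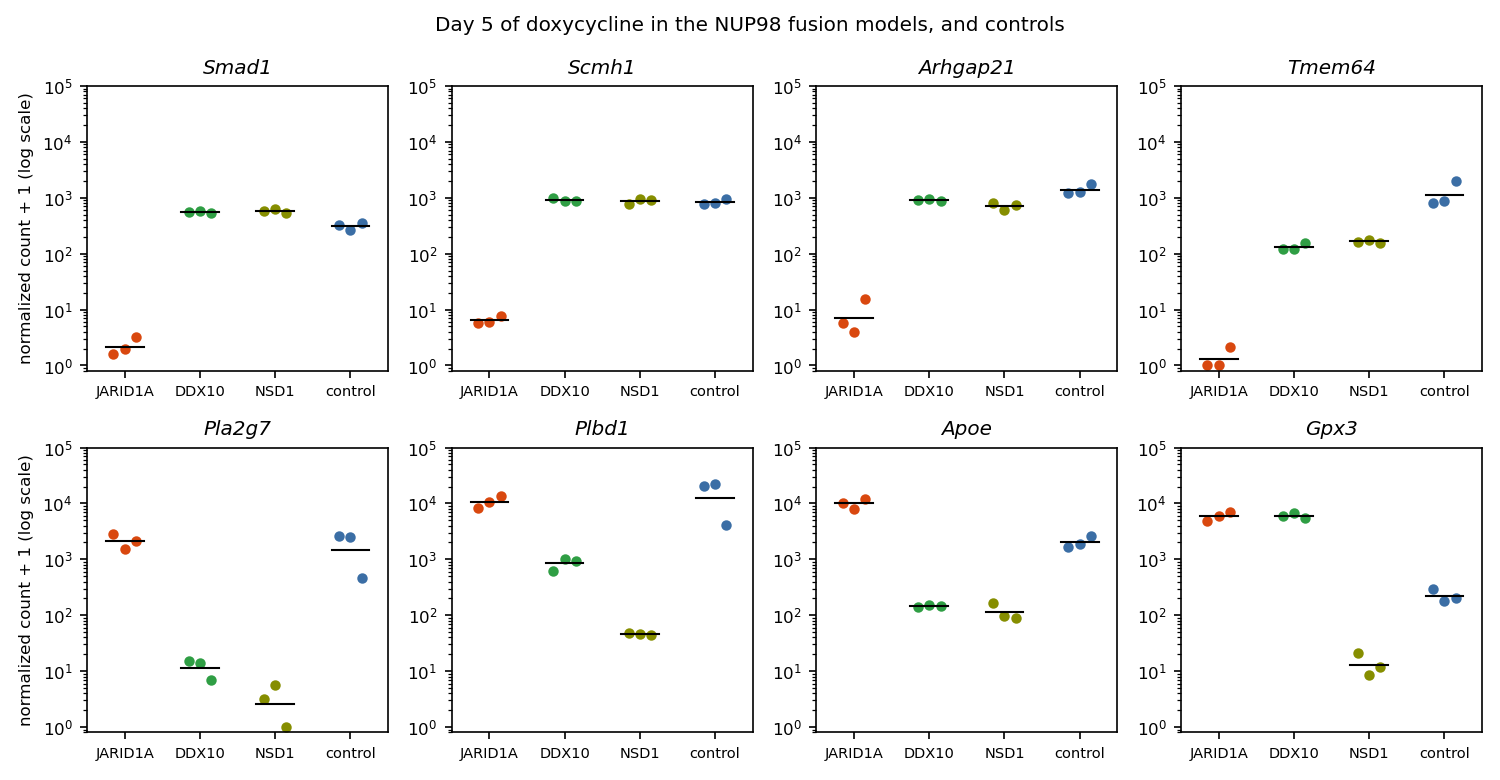
Normalized counts plus 1 (log axis) of 8 genes in each day 5 doxycycline library of NUP98-JARID1A, NUP98-DDX10 and NUP98-NSD1 cells and in the controls (3 libraries each); lines are means of the log values. Smad1, Scmh1, Arhgap21 and Tmem64 are near 0 in NUP98-JARID1A and not in the other 3 groups, Pla2g7, Plbd1 and Apoe are higher in it than in the other fusions, and Gpx3 is at a like level in NUP98-DDX10.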

How the data were processed

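Bulk RNA libraries of sorted mouse bone marrow cells were analysed from 1 table of 24462 features (24454 genes under Entrez numbers, 24376 of them matched to a symbol, and 8 constructs) in 33 libraries; 2 ChIP samples were not analysed here. The deposited signal values are the authors' gene counts after division by a size factor. Dividing each library by its smallest step turned 100% of its values into whole reads (tolerance 0.01), giving 12043519 to 28912315 reads per library. The submitters' processing notes name FastQC, STAR, SAMtools, featureCounts and DESeq2, without versions, and the builds GRCm38 and mm10; strand setting and annotation release are not given in the sources used here, so overlapping and antisense genes may share reads. The notes give no role or order for these tools.

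Testing was limited to the 12687 features that reached 10 in 3 or more libraries, and was done on log2(value + 1) with limma 3.58.1 (R 4.3.3), with 1 mean for each of the 10 groups of all 33 libraries, a mean-variance trend and Benjamini-Hochberg adjustment over all features. The pooled fit had 27.3 degrees of freedom in total, those of limma's prior included. Alternatives were pseudocounts of 0.5 and 10, no filter, a filter at 50, quantile normalization, edgeR 4.0.16 and DESeq2 1.42.0 on the recovered reads, the compared libraries alone, the replicate number as a block and each library left out; control 3 as the only control was added after seeing the data. Tested on simulated counts for this comparison with 12687 features, limma recovered 54 of 100 changed features at a log2 change of 1 and 99 of 100 at 2, with 12 false calls. A fit to the 6 simulated libraries alone recovered 12 of 100 and 82 of 100, with 3 false calls. The simulated libraries of a group shared 1 mean per feature and 1 dispersion, with no control set apart. These counts are therefore not error rates for the real libraries.

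The members and lists were chosen with earlier results of these data known. Named genes are the constructs, the fusion parts, Cdk6 and Cdk4; the 15 largest rises and 15 largest falls outside the lists of other lineages and the 8 largest falls within them, where libraries did not overlap and the mean of the 6 libraries was above the median of all (408 normalized counts); from each list, the 6 or fewer members lowest in adjusted p; the 10 highest and 10 lowest genes that held from untreated to day 5 and the 6 largest that changed sign; and the 10 largest rises and falls against the other fusions. Further members named as examples were chosen after their values were seen, and not all genes that this rule names are reported here. A gene with 0 reads was given the bound set by 3 reads over the 3 libraries of its group (0.848 normalized counts at day 5). In the Hox, Meis and Pbx median, such genes with 3 or fewer reads in the controls were left out. Bounds and intervals cover counting error only. Promoter sequences are from RefSeq (GRCm38.p6).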

Additional observations from a re-analysis of the deposited data

Results flagged for a closer look

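In groups of 4 libraries, here the untreated NUP98-JARID1A cells, 12 of 141 checked genes had 1 library set apart from the other 3 by more than 0.829 of the whole range, where chance gives about 1 in 20 (7 of 141). Untreated library 1, the one titled day 3, was the low one for eGFP (9450.4 normalized counts), C1qa (1.011), Apoe (614.66) and Tgfbi (3033.9). Library 2 was the low one for Hoxa5 (637.55). Library 4 was the high one for Siglech (299.92), Il7r (210.91), Ccl5 (16.447), Ablim1 (16.447), Gimap4 (125.77) and Cecr2 (30.959). Library 3 was the high one for Cxcl16 (454.95).

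Levels at day 5, and with them the differences from the shared controls, differed between the fusions, by the limma test of NUP98-JARID1A against the mean of NUP98-DDX10 and NUP98-NSD1 given beside each gene in the report. The test compares levels and not the response to doxycycline, and Smad1, Scmh1 and Arhgap21 were low in untreated NUP98-JARID1A cells too. On the log2 scale the genes lower in NUP98-JARID1A were Smad1 (-8.0152), Scmh1 (-7.1092), Arhgap21 (-6.8119), Angptl2 (-4.2552), Adam19 (-4.0539), Tut4 (-3.3918), Ccdc88a (-3.0925), Rpl13 (-2.7963) and Slc4a8 (-2.4912). The genes higher in it were Pla2g7 (8.5746), Apoe (6.2836), Plbd1 (5.7456), Olfm4 (5.3376), Alox5 (5.3044), Marcks (4.8318), C1qc (4.7252), Hdc (4.6189), Pax8 (4.5354) and Mmp9 (4.4974).

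A feature that no comparison used, the NUP98-HOXA9 construct, was listed at up to 21.673 normalized counts in the untreated NUP98-JARID1A libraries, at 1.82, 2.01 and 0 at day 5 and at 0 in the 3 controls; it was not tested, and its part that equals other NUP98 constructs is not known from the sources used here.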

How the results depend on the processing

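The counts of features called in the 4 comparisons stayed within 1.5 times under every alternative except the 2 that use the 6 compared libraries alone. In day 5 against control cells 4839 features were called there, where 8536 were called with the spread pooled over 33 libraries. The model of 6 libraries had 4 residual degrees of freedom. The 27.3 of the pooled fit are a total that includes those added by limma's prior, so these numbers are not like quantities. The pooled spread comes from other groups too, while the model of 6 libraries takes it from day 5 and control libraries only. The part of spread and of degrees of freedom in the lower count was not tested. With 1 library left out, 7635 to 8831 were called, edgeR called 8470 and DESeq2 8475, and no filter gave 9870 of 18440. Replicate numbers did not pair the libraries (correlations of deviations of 0.0785, 0.0389 and -0.00037 between same-numbered libraries, the highest for libraries 1 and 2 but not 3). With the replicate number as a block 4522 were called, with 2 residual degrees of freedom, and Cdk4, Cebpa, Spi1, Mki67 and Ddx10 were then not called. A block was not fitted for the comparisons with the untreated cells, in which 2 of the 4 libraries bear the number 1.

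Directions of 12 named genes turned. With quantile normalization Nsd1 was at -0.034, Flt3 at 0.038, Mpo at -0.0017 and Ngp at 0.53. In edgeR and DESeq2 Mpo was at -0.12 and -0.18 and Ltf at -0.30 and -0.36. With control 3 as the only control Nsd1 was at -0.25, Kit at 0.056, Flt3 at 1.27, Myb at 1.49, Ngp at 1.79, S100a8 at 0.91 and S100a9 at 0.57. With 1 library left out Hoxa5 ran over -0.50 to 2.12, Meis1 -0.28 to 1.58, Flt3 -0.98 to 0.15, Myb -1.07 to 0.23, Mpo -0.72 to 0.78, Ltf -0.91 to 0.74, Ngp -1.24 to 0.34 and Myc -0.069 to 0.14. The cause was not tested. Of the list counts, 870 stayed within 1.5 times and 122 did not, 52 of these in the models of 6 libraries. Low counts limit the fold changes of silent genes, which are given as bounds.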
